A study of Homo sapiens with 6 samples.

Results

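Expression of 8 genes that start, carry out or restrain programmed cell death was described in A375 cells after silencing of FAH, the last enzyme of tyrosine breakdown. The genes were APAF1, CASP9, CASP8, DIABLO, XIAP, TNFRSF10B, MCL1 and BCL2L1, 8 of the 18372 genes tested in these arrays. They were chosen by name, with earlier results of the same arrays known, and a gene with several probe sets was to be read by its brightest probe set on average over the 6 arrays. Each of the 8 genes had 1 probe set with its symbol alone, so the measured signals decided nothing in that choice. The fold changes below are nevertheless a description of genes named with their changes in view, and the adjusted p values are those of the fit over all 18372 genes.

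A375 is an established human melanoma line. All cells were transfected and collected after 72 h, 3 cultures with a negative control siRNA and 3 with siFAH, and the design text of the series states that the cultures were biological replicates. The labels do not say which FAH siRNA was used, and a single line limits the groups as a model of FAH loss. The comparison asks how the mRNAs of the death machinery stood in cells with less FAH.

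Apoptosis is run by caspases, proteases that are made as inactive precursors. In the mitochondrial route, cytochrome c leaves the mitochondria and binds APAF1, which assembles into the apoptosome and activates caspase 9. DIABLO leaves with cytochrome c and relieves the block that XIAP places on caspases, while MCL1 and BCL2L1 keep the mitochondrial membrane closed. In the receptor route, the TRAIL receptor TNFRSF10B recruits and activates caspase 8. Melanoma cells often hold this machinery in check, and low APAF1 is a known feature of part of these tumors.

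APAF1 was the gene of the group with the largest change, so the bases before its start site are shown, as RefSeq gives them for GRCh38.p14 on the plus strand at chr12:98645040-98645289. Capitals mark a CCAAT box and a GC box, both of which lie here on the opposite strand.

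APAF1: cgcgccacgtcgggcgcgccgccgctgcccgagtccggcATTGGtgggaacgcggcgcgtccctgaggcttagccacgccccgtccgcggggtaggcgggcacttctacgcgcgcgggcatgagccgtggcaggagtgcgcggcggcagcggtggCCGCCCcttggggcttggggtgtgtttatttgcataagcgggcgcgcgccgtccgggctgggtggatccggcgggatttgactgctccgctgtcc

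The stretch covers 250 bases that end just before the annotated start, and 73.6% of them are G or C. It was searched, with the 50 bases that follow, on both strands for CCAAT, for the GC box GGGCGG and for the E2F words TTTCCCGC, TTTCGCGC, TTTGCCGC and TTTGGCGC. CCAAT was found from -211 to -207 and the GC box from -95 to -90, counted from the start site, and no E2F word was found in the window. Of 35116 such windows of 300 bases in the reference, 34.6% held a CCAAT box, 45.0% a GC box and 3.31% an E2F word. For comparison, the 2 windows of CASP9, which encodes the partner of APAF1, held 8 and 9 GC boxes, some of them overlapping. The windows of CASP8, DIABLO, BCL2L1 and XIAP held from 0 to 2 each. No window is given here for TNFRSF10B or MCL1. The matches describe the letters of the windows and say nothing of binding.

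The array was the Affymetrix Human Gene 1.0 ST, read once per culture, with RMA log2 signals as deposited by the authors. Array medians ran from 4.92 to 4.996 with control siRNA and from 5.003 to 5.04 with siFAH, and arrays of the same group had Pearson correlations of 0.995 to 0.997 across probe sets. FAH itself was lower on each siFAH array than on each control array, at 58.7% of the control level (a log2 difference of -0.77 with a standard error of 0.10 and a limma adjusted p of 0.00213). Of the melanoma markers, SOX10 had a mean log2 signal of 8.56, S100B of 7.26 and MITF of 6.60 in the control arrays. The pigment genes PMEL, MLANA, TYR and TYRP1 lay between 2.87 and 3.88 there, below the array medians. None of the 7 melanoma markers measured was called by limma, with 2 at an unadjusted p under 0.05. These were SOX10 (-0.19, called after median centering at an adjusted p of 0.0471) and the dim MLANA (0.26). Of 5 markers of dedifferentiated melanoma, the receptor AXL fell (-0.55, adjusted p = 0.00425 from limma) and EGFR rose (0.31, adjusted p = 0.0355, a call lost without control replicate 2, control replicate 3, siFAH replicate 1 or siFAH replicate 2, at 0.0939, 0.109, 0.0956 and 0.111, and under 3 other scalings, at 0.0523 to 0.0682). None of 3 leukocyte, 3 endothelial and 4 epithelial markers was called by limma, and 0, 0 and 1 of them had an unadjusted p under 0.05. The summed linear signal ran from 36.5 to 40.9 with control siRNA and from 38.7 to 43.4 with siFAH for the leukocyte markers, from 42.0 to 45.4 and from 46.4 to 47.3 for the endothelial markers, and from 76.7 to 91.6 and from 88.3 to 98.0 for the epithelial markers, and the part of these levels in the results below was not tested. With limma, 9.86% of all genes were called at an adjusted p under 0.05, 6.38% as lower and 3.48% as higher after FAH silencing. An unadjusted p under 0.05 was found for 26.2% of all genes, and the arrays of the groups did not overlap for 32%. With 3 arrays a group, an exact permutation test of a single gene cannot go below p = 0.1. In RNA from whole cultures, fewer cells that express a gene and less RNA per cell cannot be told apart.

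APAF1 mRNA fell after FAH silencing to 60.4% of its control level. Its log2 signals were 6.16, 6.23 and 6.38 with control siRNA and 5.48, 5.61 and 5.49 with siFAH. The groups did not overlap, and the lowest control array stood 0.55 above the highest siFAH array. The group means were 6.26 ± 0.11 (SD, n = 3) and 5.53 ± 0.07 (SD, n = 3). Limma gave a log2 fold change of -0.73 (standard error 0.08, 95% confidence interval -0.90 to -0.56, adjusted p = 0.00110), a decrease of 1.66-fold with an interval from 1.47-fold to 1.87-fold. Only 41 of the 18372 genes had a lower log2 fold change. The decrease was close in size to that of FAH, although siFAH replicate 2, the array with the least FAH, was the siFAH array with the most APAF1. Within the fits that left out 1 array, the log2 fold change of APAF1 ran from -0.77 to -0.67 and its adjusted p from 0.00227 to 0.00734.

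The genes whose pattern over the 6 arrays was most like that of APAF1 were PSAT1, IFRD1, NTM, PSPH and TINAGL1. Likeness was measured as the root mean square difference of signals centered on each gene's mean, which was 0.054 for PSAT1, 0.062 for IFRD1, 0.063 for NTM, 0.063 for PSPH and 0.066 for TINAGL1. PSAT1 and PSPH encode enzymes of serine synthesis, with log2 fold changes of -0.67 each. By its construction the measure depends mostly on the size of the difference between the groups, and the 5 genes had log2 fold changes from -0.73 to -0.65, close to that of APAF1.

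**Figure D1:**
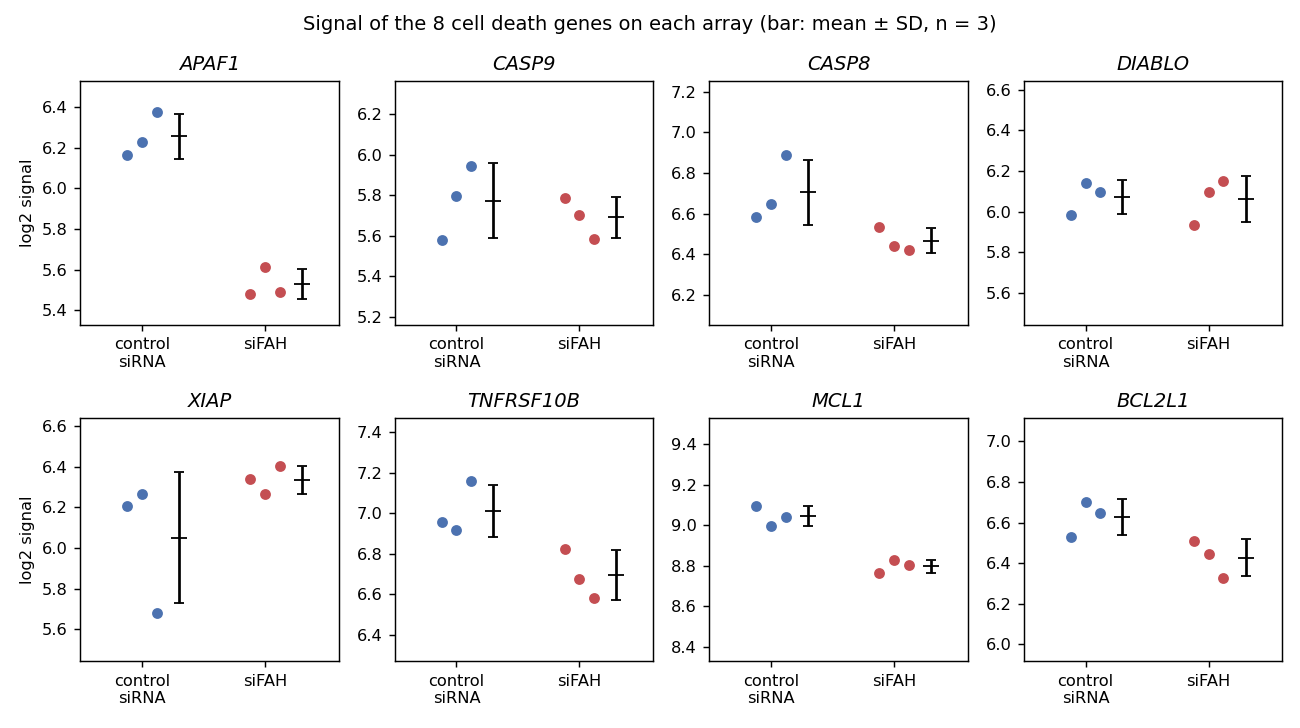
Log2 signal (vertical axis, each panel spanning 1.2 units) of the 8 genes on each array, blue for control siRNA and red for siFAH, with the mean ± SD of 3 arrays as a black bar. APAF1 shows the widest gap between groups (0.55), MCL1 a narrow spread in both, and XIAP 1 control array, replicate 3, at 5.68 below all others.

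The partners of APAF1 in the apoptosome route did not pass the test. CASP9, the initiator caspase that APAF1 activates, read 5.58, 5.80 and 5.95 with control siRNA and 5.79, 5.70 and 5.58 with siFAH. The groups overlapped over most of their range. Its log2 fold change was -0.08 (95% confidence interval -0.30 to 0.13, adjusted p = 0.635 from limma), so a decrease of up to 1.23-fold lies within the interval. Without control replicate 3 the value was 0.0033. CYCS, which encodes the cytochrome c that APAF1 binds, had 0.05 (95% confidence interval -0.17 to 0.27, adjusted p = 0.786).

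DIABLO, the antagonist of the inhibitor of apoptosis proteins, had log2 signals of 5.98, 6.14 and 6.09 with control siRNA and 5.93, 6.10 and 6.15 with siFAH. Its log2 fold change of -0.01 (95% confidence interval -0.19 to 0.17, adjusted p = 0.951 from limma) was the smallest of the 8 genes, and it was above 0 after quantile normalization (0.0025) and cyclic loess (0.0041). The interval bounds a decrease at 1.14-fold.

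XIAP, which binds and blocks caspases, was the 1 gene of the 8 with a higher mean in the siFAH arrays. It read 6.21, 6.27 and 5.68 with control siRNA and 6.34, 6.27 and 6.40 with siFAH. The third control array stood alone, and replicate 2 had the same signal in both groups. The log2 fold change was 0.28 (standard error 0.13, 95% confidence interval -0.01 to 0.58, adjusted p = 0.205 from limma). Without control replicate 3 it was 0.098 (adjusted p = 0.497), so that array carried most of the difference. The same array was the highest of the control arrays for APAF1, CASP9, CASP8 and TNFRSF10B, and its part in these results was not tested beyond leaving it out.

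TNFRSF10B, the death receptor of the group, fell after FAH silencing, with little margin to the threshold. Its log2 signals were 6.96, 6.92 and 7.16 with control siRNA and 6.83, 6.68 and 6.58 with siFAH. The groups did not overlap, with 0.09 between the nearest arrays. The log2 fold change was -0.32 (standard error 0.09, 95% confidence interval -0.51 to -0.12, adjusted p = 0.0491 from limma), or 80.3% of the control level. The call was lost without control replicate 1 (adjusted p = 0.0595), control replicate 2 (0.0760), control replicate 3 (0.151), siFAH replicate 2 (0.127) or siFAH replicate 3 (0.169), and was kept without siFAH replicate 1 (0.0364). It was also lost after quantile normalization (adjusted p = 0.0660) and cyclic loess (0.0747). The related receptor TNFRSF10A had -0.20 (95% confidence interval -0.40 to -0.0041, adjusted p = 0.183), and the arrays of its groups overlapped.

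CASP8, the initiator caspase that acts below TNFRSF10B, was not called. It read 6.58, 6.65 and 6.89 with control siRNA and 6.54, 6.44 and 6.42 with siFAH. The groups did not overlap, but only 0.05 separated the nearest arrays. The log2 fold change was -0.24 (standard error 0.09, 95% confidence interval -0.43 to -0.05, unadjusted p = 0.0199 and adjusted p = 0.112 from limma). Without control replicate 3 it was -0.15 (adjusted p = 0.287). The adaptor FADD, which joins the receptor to caspase 8, had 0.04 (adjusted p = 0.767), and CFLAR, which can hold caspase 8 inactive, had 0.18 (95% confidence interval -0.01 to 0.38, adjusted p = 0.223).

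MCL1, a survival protein with a short life in the cell, fell by the smallest amount of the 3 called genes and with the tightest replicates. Its log2 signals were 9.09, 8.997 and 9.04 with control siRNA and 8.76, 8.83 and 8.80 with siFAH. The groups did not overlap, and the lowest control array stood 0.17 above the highest siFAH array. The means were 9.04 ± 0.05 (SD, n = 3) and 8.80 ± 0.03 (SD, n = 3). The log2 fold change was -0.25 (standard error 0.07, 95% confidence interval -0.39 to -0.10, adjusted p = 0.0414 from limma), or 84.4% of the control level, under the 1.2-fold limit of the study. The call was lost when any 1 of the 6 arrays was left out: the adjusted p was 0.0922, 0.0858 and 0.0880 with control replicates 1, 2 and 3 left out in turn, and 0.102, 0.0960 and 0.114 with siFAH replicates 1, 2 and 3 left out. It was also lost after quantile normalization (0.0641) and after cyclic loess, where the log2 fold change was -0.16 (0.153).

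BCL2L1, which encodes the survival protein BCL-XL and its short form, read 6.53, 6.70 and 6.65 with control siRNA and 6.51, 6.45 and 6.33 with siFAH. The groups did not overlap, with 0.02 between the nearest arrays. The log2 fold change was -0.20 (standard error 0.08, 95% confidence interval -0.37 to -0.03, unadjusted p = 0.0254 and adjusted p = 0.129 from limma). Both forms are read by 1 probe set and could not be separated. With array weights, BCL2L1 passed the test (-0.23, adjusted p = 0.0395).

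**Figure D2:**
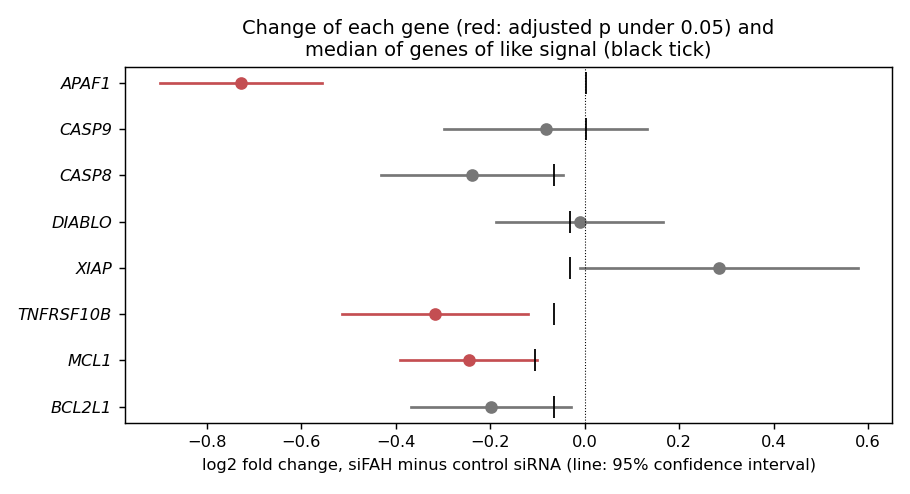
Each of the 8 genes is a point at its log2 fold change (horizontal axis, siFAH minus control siRNA) with its 95% confidence interval, red where the adjusted p was under 0.05 and gray otherwise. Black ticks give the median of all genes in the same 1 of 10 bands of mean signal, from 0.0027 for APAF1 and CASP9 to -0.11 for MCL1; the interval of APAF1 lies wholly below -0.55.

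Of the 8 genes, 3 were called lower and none higher, beside 6.38% and 3.48% of all genes. At the limits of the study's methods, 1.2-fold with an unadjusted p under 0.05 (here from limma), 2 were lower, APAF1 and TNFRSF10B, beside 12.6% of all genes in either direction. The arrays did not overlap for 5 of the 8, beside 32% of all genes. Nothing was read from these shares, since the genes were named with their changes known. The median log2 fold change was -0.22 over the 8 genes and 0.0050 over all genes, and for the same reason nothing was read from these medians. The 3 called genes acted on both sides of cell death, APAF1 and TNFRSF10B being promoters of it and MCL1 a brake.

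Signal level moved with the direction of change in these arrays, and the 8 genes were set beside genes of like level. With the genes in 10 bands of equal number by mean signal, the median log2 fold change was 0.048 in the dimmest band and -0.11 in the brightest, and the share called lower was 0.326% and 18.9%. APAF1 and CASP9 lay in the sixth band, where the median was 0.0027 and 5.82% were called lower. TNFRSF10B, CASP8 and BCL2L1 lay in the eighth, with a median of -0.07 and 10.6% called lower. MCL1 lay in the brightest band. The part of this trend in the values of the 8 genes was not tested. After cyclic loess the log2 fold change was -0.72 for APAF1, -0.26 for TNFRSF10B, -0.19 for CASP8, -0.16 for BCL2L1 and -0.16 for MCL1.

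**Figure D3:**
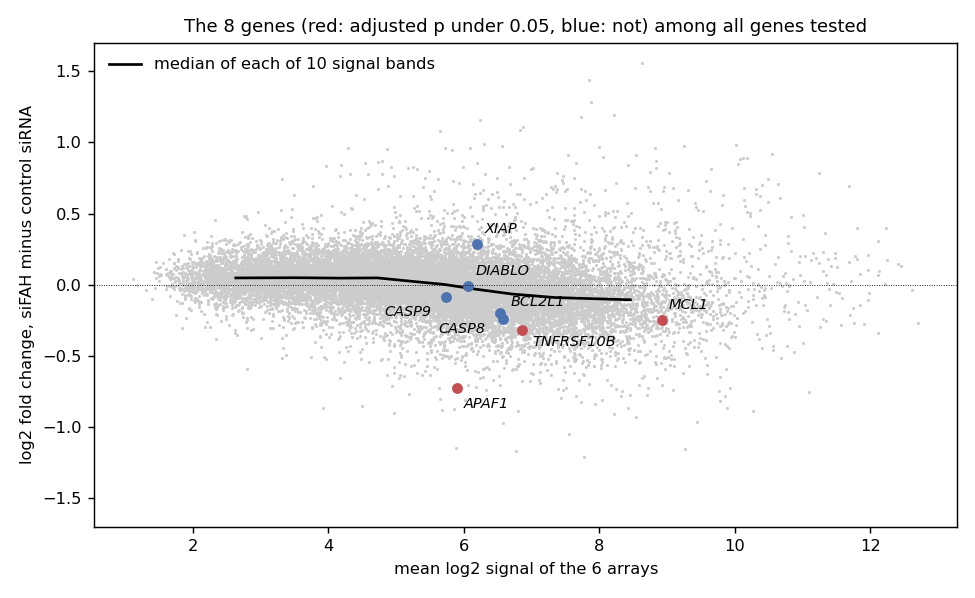
Log2 fold change (siFAH minus control siRNA, vertical axis) against mean log2 signal of the 6 arrays (horizontal axis) for all 18372 genes tested (gray), with the 8 genes in red (adjusted p under 0.05) or blue. The black line joins the medians of the 10 signal bands, from 0.048 to -0.11, and APAF1 at -0.73 lies far below it at its signal level.

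The other genes of the death machinery were then counted by role. Of 76 such genes listed, the 8 included, 69 were measured, and the others were not analysed here. Of the 69, 6 were called lower, 1 higher and 62 not called by limma (17 at an unadjusted p under 0.05, beside 26.2% of all genes, and 0 by the methods' t-test after adjustment). Among the 61 genes outside the group of 8, 3 fell and 1 rose, or 6.56% called beside 9.86% of all genes, and their median log2 fold change was 0.0097. Leaving out control replicate 2 or control replicate 3 left 2 lower genes, and leaving out siFAH replicate 2 or siFAH replicate 3 left 1. There were 3 after quantile normalization or cyclic loess. Without siFAH replicate 2 the 1 higher gene was lost.

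Of 8 apoptosome genes and released mitochondrial factors, APAF1 alone was called, beside 9.86% of all genes. AIFM1, a flavoprotein that moves from mitochondria to the nucleus, had -0.24 (adjusted p = 0.100) and the protease HTRA2 had -0.16 (adjusted p = 0.163). None of 9 caspases was called by limma, and none had an unadjusted p under 0.05 by the methods' t-test. With limma 2 had an unadjusted p under 0.05 (CASP2 at -0.25 and CASP8), beside 26.2% of all genes. Of 8 inhibitors of apoptosis and their antagonists none was called, and 1 had an unadjusted p under 0.05, beside 26.2% of all genes. It was the giant ubiquitin ligase BIRC6 at -0.18 (adjusted p = 0.182 from limma). BIRC5, the survivin gene, had -0.05 (adjusted p = 0.671).

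Of 6 caspase substrates, 2 were lower, beside 6.38% of all genes. DFFA lay in the eighth signal band, where 10.6% of genes were called lower, and PARP1 in the brightest, with 18.9%. DFFA, the chaperone and inhibitor of the nuclease that cuts DNA in apoptosis, had 6.81, 6.80 and 7.03 with control siRNA and 6.56, 6.39 and 6.36 with siFAH. Limma gave a difference of -0.44 on the log2 scale (standard error 0.09) at an adjusted p of 0.0122, a call lost without siFAH replicate 2 (adjusted p = 0.0513) or siFAH replicate 3 (0.0529). The nuclease itself, DFFB, had -0.15 (adjusted p = 0.308). PARP1, a DNA repair enzyme that caspases cut, had -0.29 (standard error 0.07, adjusted p = 0.0355), lost when any 1 of the 6 arrays was left out (0.0521 to 0.122) and after quantile normalization (0.0765) or cyclic loess (0.0892).

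Of 10 death receptors and ligands, TNFRSF10B fell and TNFRSF21 rose, beside 6.38% lower and 3.48% higher of all genes. TNFRSF21, the receptor DR6, had 7.60, 7.69 and 7.54 with control siRNA and 8.02, 8.03 and 7.90 with siFAH. It was higher by 0.37 on the log2 scale (standard error 0.07) at a limma adjusted p of 0.0123, and of 0.0543 without siFAH replicate 2. FAS had -0.01 (adjusted p = 0.939). TNFSF10, the gene of the ligand TRAIL, had a mean log2 signal of 2.13 in the control arrays and 2.29 in the siFAH arrays, far below the array medians. None of 4 receptor adaptors and brakes was called, at an unadjusted p under 0.05 or after adjustment, and the values ran from 0.04 for FADD, below 0 after median centering, to 0.18 for CFLAR. TRADD had 0.09 (adjusted p = 0.506 from limma).

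In the BCL2 family, MCL1 was the 1 called gene of 5 survival proteins, beside 9.86% of all genes. BCL2 had 0.0015 (adjusted p = 0.994 from limma), a value that was -0.02 after quantile normalization or cyclic loess and -0.05 after median centering. The pore-forming proteins BAX and BAK1 had 0.06 and 0.12 (adjusted p = 0.719 and 0.414). None of 10 BH3-only proteins was called by limma. BNIP3L, a mitophagy receptor, had -0.32 (adjusted p = 0.0757) and PMAIP1, the MCL1 antagonist NOXA, had -0.22 (adjusted p = 0.0891). These 2 of the 10 had an unadjusted p under 0.05 from limma, beside 26.2% of all genes. By the methods' t-test it was 1 of the 10, beside 3934 of all 18372 genes. BCL2L11 and BBC3, the activators BIM and PUMA, had -0.01 and 0.10. HUWE1, a ligase that marks MCL1 for breakdown, lay in the brightest signal band, where 18.9% of genes were called lower. Of 4 genes of MCL1 protein turnover, HUWE1 alone was lower (-0.32, standard error 0.07, adjusted p = 0.0248 from limma). That call was kept without control replicate 1 (0.0344) or siFAH replicate 1 (0.0366) and lost without control replicate 2 (0.0647), control replicate 3 (0.0796), siFAH replicate 2 (0.0635) or siFAH replicate 3 (0.0975).

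**Figure D4:**
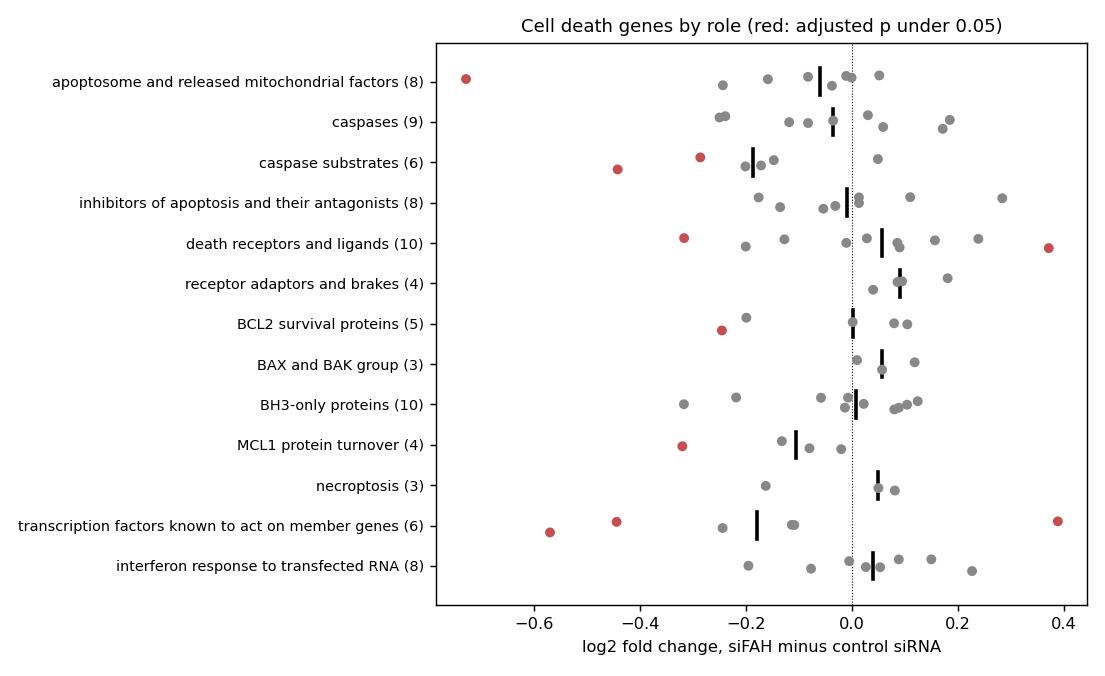
Horizontal position gives the log2 fold change, siFAH minus control siRNA, for the genes measured in each of 13 lists (their number is in parentheses). Points are genes, colored red for an adjusted p under 0.05 and gray if not called, and a black bar marks the median of a list, from -0.19 for caspase substrates to 0.09 for receptor adaptors and brakes; APAF1 is the point at -0.73.

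Of the transcription factors known to act on genes of the group, DDIT3 (CHOP), an inducer of TNFRSF10B under stress, fell. It read 5.65, 5.78 and 5.78 with control siRNA and 5.21, 5.22 and 5.07 with siFAH. The log2 difference was -0.57 (standard error 0.07) at a limma adjusted p of 0.00234, and of at most 0.0152 as each array was left out. NFKB1, a subunit of NF-kappaB, fell as well (-0.44, standard error 0.07, adjusted p = 0.00660), and MYC rose (0.39, standard error 0.06, adjusted p = 0.00597). E2F1, which can drive APAF1, had -0.11 (95% confidence interval -0.28 to 0.05, adjusted p = 0.370). Whether these factors had a part in the changes of APAF1, TNFRSF10B and MCL1 was not tested. None of 8 interferon response genes, which transfected RNA can induce, was called by limma or the methods' t-test, at an unadjusted p under 0.05 or after adjustment. The values ran from -0.20 for IFIT1 to 0.23 for IFIT3. Both groups were transfected, so a response common to them would not show here. IFIH1, IFIT1, IFIT2, RIGI and MX1 had mean log2 signals from 3.51 to 4.72 over the arrays, below the array medians. None of 3 necroptosis genes was called either, with none at an unadjusted p under 0.05. The largest value was that of MLKL, the executioner of necroptosis (-0.16, adjusted p = 0.276 from limma). RIPK3 and ZBP1 had mean log2 signals of 4.05 and 4.42 over the arrays, below the array medians.

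**Figure D5:**
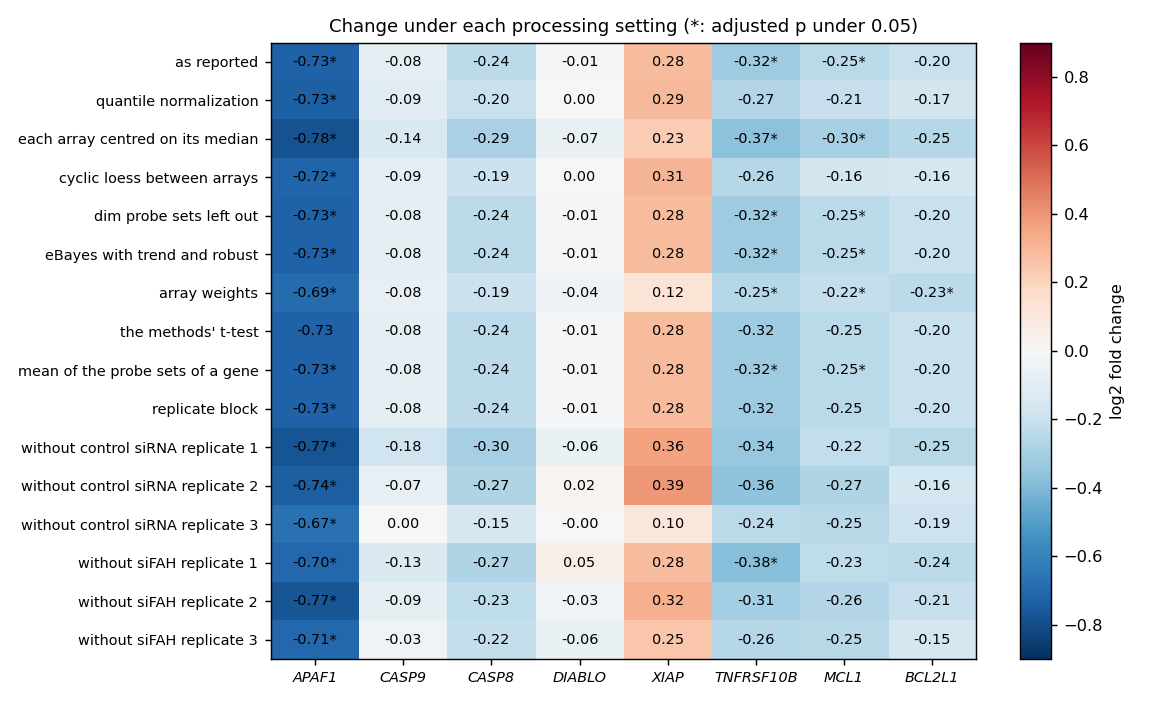
Log2 fold change (color and printed value, siFAH minus control siRNA) of each of the 8 genes (columns) under each way of processing the signals (rows), with an asterisk where the adjusted p was under 0.05. APAF1 stays between -0.78 and -0.67 in every row, while the asterisks of TNFRSF10B and MCL1 come and go and XIAP drops to 0.10 without control replicate 3.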

How the data were processed

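The members and gene lists were chosen with earlier results of these data known. Total RNA of A375 cells was read on 6 Affymetrix Human Gene 1.0 ST arrays, 3 per group. The log2 signals were made and deposited by the authors with RMA and global scaling, no version being given. The sources differ on RNA and labeling kits.

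Of 28829 probe sets, 19291 carried 1 symbol, and the probe set with the highest mean was kept for each of 18372 genes. Groups were compared in limma 3.58.1 (lmFit, then eBayes; R 4.3.3; 4 residual and 6.52 prior degrees of freedom, two-sided, Benjamini-Hochberg over all genes). The threshold for a call was an adjusted p under 0.05. SAM, named in the methods, was not run here. The fits were tested on simulated data with independent noise for each gene, which held no shift between arrays and no trend with signal level. Named genes were FAH, the 8 members, in each list the called genes or else the 2 with the largest change, and the 5 most like APAF1; others were named after their values were seen. Alternatives were quantile normalization, median centering, cyclic loess, a filter on probe sets under a mean of 4.99, trended and robust eBayes, array weights, the methods' t-test, averaged probe sets per gene, a replicate block, leaving out each array, and the study's limits. Arrays have no read depth, and their number limits the precision.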

Additional observations from a re-analysis of the deposited data

How the results depend on the processing

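Some alternatives changed only the test, the threshold or the genes tested, and so could not alter a direction. These were the filter, trended and robust eBayes, the t-test, the replicate block and the study's limits. Averaging probe sets also left the members unchanged, as each had 1 probe set. APAF1 kept its direction under all 16 alternatives and its call under 15, with log2 fold changes from -0.78 to -0.67. It lost the call with the methods' t-test (-0.73, adjusted p = 0.0914), as did FAH (-0.77, adjusted p = 0.118). The paper names Student's t-test for mRNA differences between groups but chose its array genes with SAM, which was not run here. The t-test called 8 genes lower and 6 higher of all genes after adjustment, and 1841 at the methods' limits, APAF1 and TNFRSF10B among them. TNFRSF10B lost its call under 9 of 16 alternatives: -0.27 after quantile normalization, -0.26 after cyclic loess, -0.32 with the t-test (adjusted p = 0.207) and -0.32 with the replicate block (adjusted p = 0.107), and in 5 of the 6 fits that left out 1 array. Those 6 fits ran from -0.38, without siFAH replicate 1, where the call was kept, to -0.24 without control replicate 3. MCL1 lost it under 11 of 16: -0.21 after quantile normalization, -0.16 after cyclic loess, -0.25 with the t-test (adjusted p = 0.108), -0.25 with the replicate block (adjusted p = 0.117), -0.25 at the methods' limits, where it fell short of 1.2-fold, and from -0.27 to -0.22 as each array was left out. BCL2L1 gained a call with array weights (-0.23). CASP8 and XIAP kept direction and side of the threshold under all 16. The values of CASP9 ran from -0.18 to 0.0033 and those of DIABLO from -0.056 to 0.053 as each array was left out, and DIABLO had 0.0025 after quantile normalization and 0.0041 after cyclic loess; neither was called in any. The cause of these differences was not tested.

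Of all genes, 1172 were lower and 639 higher as reported. Higher genes numbered 416 after median centering and 1170 with array weights, and as each array was left out the lower genes ran from 390 to 1192 and the higher from 267 to 653. Of the 69 cell death genes, the lower ones numbered 3 after quantile normalization, 3 after cyclic loess, 10 with array weights and 0 with the t-test, and the higher ones 2 with array weights and 0 with the t-test. As each array was left out they ran from 1 to 5 lower and from 0 to 1 higher.

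The signals gave no sign that the replicate numbers pair the arrays. The labels do not say whether the cultures were paired, and 3 arrays a group cannot settle it. Deviations of same-numbered arrays from their group means correlated at -0.16, -0.089 and -0.27 over genes, and 0 of 6 arrays correlated best with its own number. With the replicate block, 462 genes were lower and 299 higher, and of the cell death genes 2 were lower.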
